A study of Sus scrofa with 19 samples.

Results

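Late cholesterol synthesis, the route that turns squalene into cholesterol, was followed in the adrenal glands of 19 male piglets through 7 of its enzyme genes: SQLE, CYP51, TM7SF2, MSMO1, NSDHL, HSD17B7 and SC5D. A gene was taken where a probe set of the array carries its symbol and no other. Each of the 7 has 1 such probe set, out of 12218 genes identified in this way, and all 7 passed the filter on low signals described below. The piglets came from different sows. The sows ate a control diet, a fish oil diet or a microalgae diet from gestation day 75, and were given LPS (lipopolysaccharide, a bacterial cell wall component that provokes inflammation) or saline on gestation day 112. Piglets were weaned at 21 days and were themselves given LPS at 28 days. Whole adrenal glands were taken 2 hours later, so no gland of an unchallenged piglet is among the arrays, and the effect of the piglets' own challenge cannot be read from them. The groups hold 3 control-diet piglets after maternal saline (piglets 8, 14 and 21 by the labels) and 3 after maternal LPS (6, 16 and 17). Offspring of fish oil sows number 4 with maternal saline (9, 11, 13 and 18) and 4 with maternal LPS (10, 19, 20 and 24). Offspring of microalgae sows number 3 with maternal saline (12, 15 and 22) and 2 with maternal LPS (7 and 23). The values are log2 signals of 1-colour arrays, 1 array per piglet, so a difference of 1 is a doubling of signal. Signals of different probe sets cannot be set against each other as levels.

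Cells make cholesterol from acetyl-CoA through mevalonate to squalene, and the late enzymes close the sterol rings and trim lanosterol to cholesterol. SREBP2, a membrane-bound transcription factor that is released when sterols are scarce, switches on most genes of the route together. The adrenal cortex uses cholesterol as the raw material of cortisol, aldosterone and androgens, takes most of it from lipoproteins, and can also make its own. SQLE, squalene epoxidase, commits squalene to sterols and is a rate-limiting step of it. CYP51 removes a methyl group from lanosterol, and TM7SF2 reduces the double bond this leaves, a step that LBR can also carry out. MSMO1, NSDHL and HSD17B7 work in turn as an oxidase, a decarboxylating dehydrogenase and a ketoreductase that take away the remaining extra methyl groups. SC5D, the lathosterol oxidase, introduces a double bond near the end of the route.

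Most of the 7 genes were low in the same pair of piglets, 6 and 13, and all 7 were high in piglet 12. None passed the test for the sow's diet or challenge. Over all 19 piglets TM7SF2 and HSD17B7 followed the others less closely. Without piglets 6 and 13 the median r with the others, group means taken off, was 0.28 for TM7SF2. For HSD17B7 it was then 0.63, as for CYP51. Piglet 6 (control diet, maternal LPS) was among the 3 lowest of the 19 for all 7 genes, and piglet 13 (fish oil, maternal saline) for 6 of 7. Piglet 12 (microalgae, maternal saline) was among the 3 highest for all 7. The genes of piglet 6 deviated by -1.26 to -0.46 log2 from the median of all piglets, with a median deviation of -1.11. In piglet 13 the median deviation was -0.86 and in piglet 12 it was 0.62. The 3 piglets belong to different diets, and 2 of them, 12 and 13, to the same maternal challenge.

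**Figure D1:**
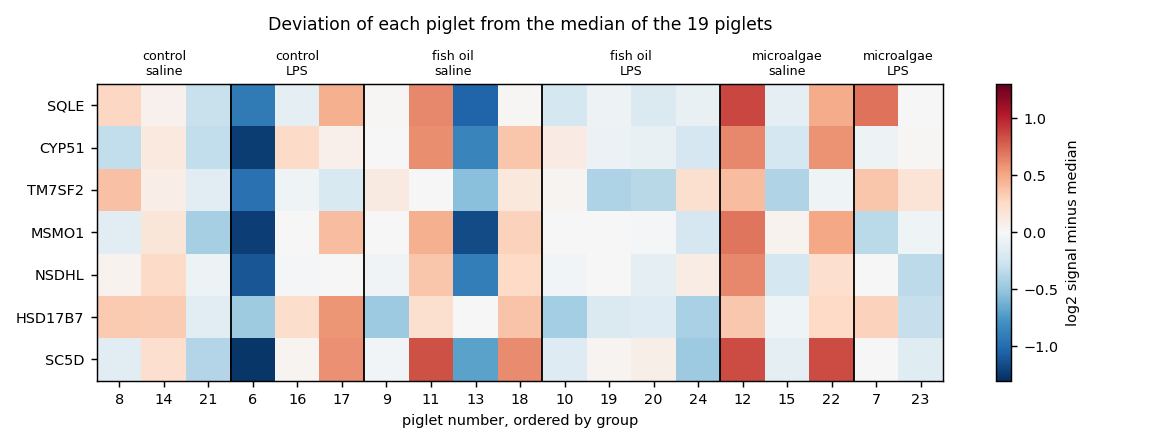
Log2 signal of each gene (rows) minus its median over the 19 piglets, for every piglet (columns, ordered by group). The columns of piglets 6 and 13 are low in nearly every row and that of piglet 12 is high in every row, whereas HSD17B7 of piglet 13 is at the median.

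The first enzyme, SQLE, had signals of 6.96, 6.75 and 6.39 in control piglets after maternal saline and 5.77, 6.56 and 7.14 after maternal LPS. In fish oil piglets it had 6.70, 7.31, 5.64 and 6.70 after saline and 6.45, 6.61, 6.49 and 6.58 after LPS. Microalgae piglets had 7.56, 6.56 and 7.16 after saline and 7.39 and 6.68 after LPS. The lowest value was that of piglet 13 and the highest that of piglet 12, a span of 1.91 log2 or 3.77-fold. The 4 fish oil piglets after LPS all lay below both microalgae piglets after LPS. SQLE was the only one of the 7 genes that did not overlap between these 2 groups, and 12.8% of all tested probe sets did not overlap between them.

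CYP51, which acts on lanosterol, ran from 7.26 in piglet 6 to 9.11 in piglet 12, around a median of 8.49. Its group means were 8.32 ± 0.26 (SD, n = 3) and 8.19 ± 0.805 (SD, n = 3) in control, 8.52 ± 0.642 (SD, n = 4) and 8.41 ± 0.137 (SD, n = 4) in fish oil, and 8.81 ± 0.483 (SD, n = 3) and 8.46 ± 0.064 (SD, n = 2) in microalgae offspring, after saline and LPS in that order. Its values overlapped between every pair of groups that share a diet or a maternal challenge. The next enzyme, TM7SF2, ran from 4.59 in piglet 6 to 5.96 in piglet 12, a narrower span of 1.37 log2. After maternal LPS its values were 4.59, 5.50 and 5.35 in control piglets and 5.91 and 5.74 in microalgae piglets. These groups did not overlap, as held for 18.2% of all tested probe sets.

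Among the enzymes that remove the other methyl groups, MSMO1 had 9.19, 9.50 and 8.91 in control piglets after saline and 8.12, 9.34 and 9.75 after LPS. Fish oil piglets had 9.34, 9.80, 8.18 and 9.64 after saline and 9.34, 9.33, 9.32 and 9.12 after LPS. Microalgae piglets had 10.04, 9.39 and 9.84 after saline and 8.99 and 9.28 after LPS. The microalgae groups did not overlap for MSMO1, but 31.6% of all tested probe sets did not overlap between the same 5 piglets. Apart from piglets 6 and 13, which lay at 8.12 and 8.18, no piglet was under 8.91. NSDHL had the same pair of low piglets, at 5.68 and 5.89, and its next lowest value was 6.45. In the 6 other pairs of groups that share a diet or a challenge, 0 of the 7 genes failed to overlap. Over all tested probe sets the share without overlap was 5.98% and 2.18% for LPS against saline in control and fish oil offspring. For control against fish oil it was 3.36% after LPS and 4.12% after saline. After saline it was 7.84% for control against microalgae and 3.82% for fish oil against microalgae.

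HSD17B7, the ketoreductase, departed from the others in piglet 13. Its values were 6.79, 6.79 and 6.31 in control piglets after saline and 5.99, 6.68 and 7.02 after LPS. In fish oil piglets they were 5.98, 6.66, 6.45 and 6.83 after saline and 6.01, 6.27, 6.28 and 6.04 after LPS, and in microalgae piglets 6.80, 6.39 and 6.71 after saline and 6.76 and 6.15 after LPS. The lowest HSD17B7 signal was that of piglet 9 and the highest that of piglet 17, while piglet 13 was at the median. Its span of 1.04 log2, or 2.06-fold, was the smallest of the 7 genes.

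SC5D, near the end of the route, had the widest span, 2.11 log2 or 4.32-fold. Its values were 6.71, 7.07 and 6.47 in control piglets after saline and 5.59, 6.89 and 7.44 after LPS. Fish oil piglets had 6.81, 7.68, 6.15 and 7.46 after saline and 6.68, 6.89, 6.93 and 6.38 after LPS, and microalgae piglets had 7.70, 6.73 and 7.71 after saline and 6.85 and 6.69 after LPS. Within every diet the SC5D values after saline and LPS overlapped, as 1 value of microalgae piglets after saline, 6.73, lay between the 2 after LPS.

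**Figure D2:**
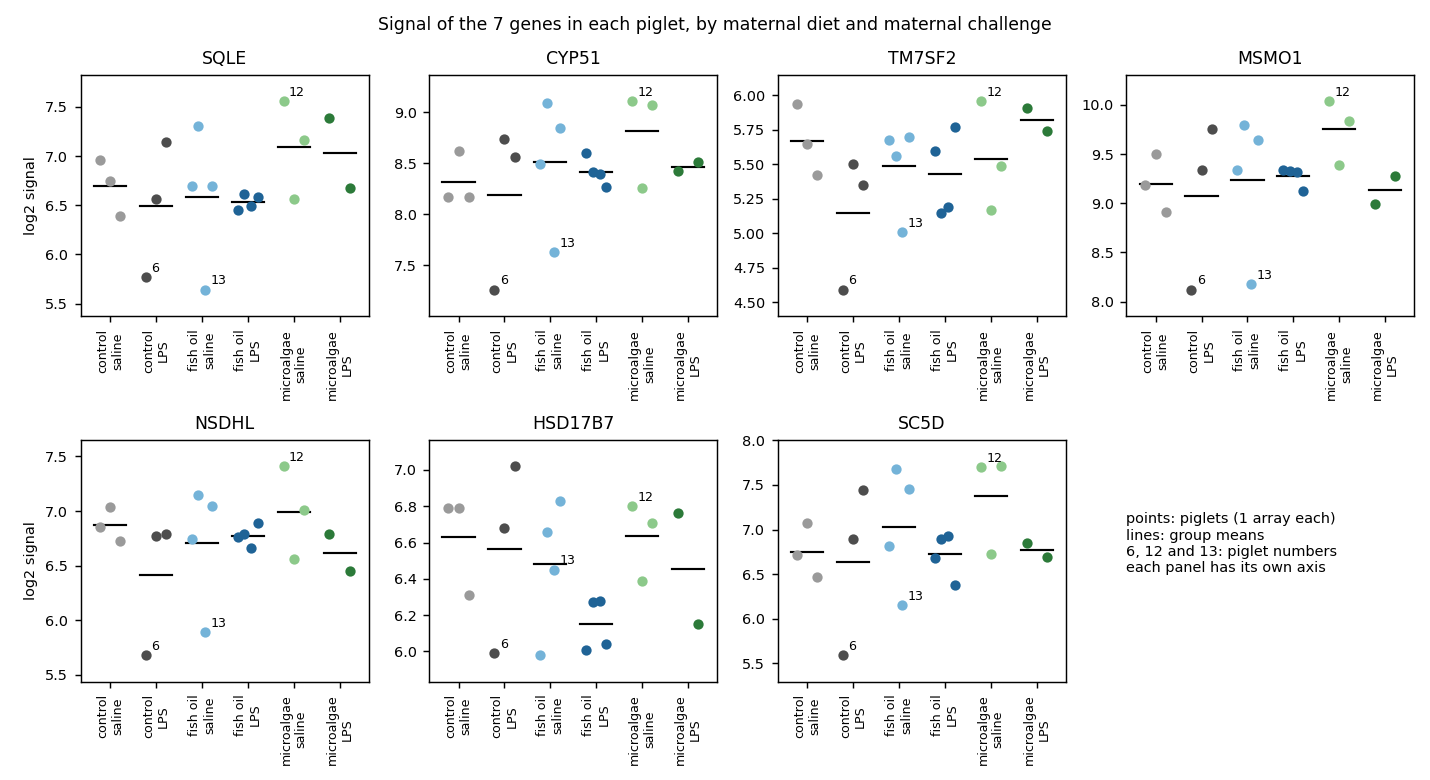
Log2 signal (vertical axes, 1 per gene) of each piglet by group, with points for piglets and black lines for group means. Piglets 6 and 13 pull down the means of their groups in most panels, and the 4 fish oil piglets after maternal LPS lie close together for SQLE, CYP51, MSMO1 and NSDHL.

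The spread between piglets of the same group was wide. Its SD, pooled over the 6 groups, was 0.571 log2 for SC5D, 0.519 for MSMO1, 0.506 for SQLE, 0.496 for CYP51, 0.419 for NSDHL, 0.343 for TM7SF2 and 0.333 for HSD17B7. The median over all 20668 tested probe sets was 0.263, and the 7 genes stood between the 72.4th percentile (HSD17B7) and the 94.3rd percentile (SC5D) of it. Without piglets 6 and 13 the SDs ran from 0.231 (NSDHL) to 0.379 (SC5D) against a median of 0.26 for all probe sets, and the percentiles from 37.5 to 81.7. Differences between the 6 groups took up between 17.4% (CYP51) and 31.3% (TM7SF2) of the variance, where the median of all tested probe sets was 24.4%.

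Across the 19 piglets the signals of MSMO1 and CYP51 had a Pearson r of 0.94 and a Spearman rho of 0.86, and those of MSMO1 and SC5D an r of 0.93 and a rho of 0.87. For both pairs r had a permutation p of 1e-05, the smallest that 100000 resamples can give (rounded). Without the piglets farthest from the median of the first gene, 6 and 13, r was 0.85 for CYP51 with MSMO1 and 0.92 for MSMO1 with SC5D, so these relations did not rest on them. The lowest r was that of TM7SF2 with HSD17B7, 0.35 (rho 0.30, permutation p 0.144). Over the 21 pairs, r had a median of 0.75 and rho one of 0.63. Adjusted over the 21 pairs by Benjamini-Hochberg, 20 passed 0.05 by r and 16 by rho. The pairs have the arrays in common, and with group means taken off the median r was 0.82.

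TM7SF2 was the gene whose relations with the other late genes rested most on piglets 6 and 13. Its r with MSMO1 was 0.57 (rho 0.21; permutation p 0.0135 for r and 0.393 for rho), and 0.00 without those 2 piglets. With SC5D it was 0.51 (rho 0.21; permutation p 0.0277 for r and 0.399 for rho), and 0.04 without them. Among the late genes, only its relations with SQLE and NSDHL, the dehydrogenase of methyl removal, stayed above 0.4, at 0.48 and 0.41. For HSD17B7 leaving out piglets 6 and 13 moved r less. It went from 0.60 to 0.65 with SQLE (rho 0.60, permutation p 0.0065 for r and 0.00789 for rho over all piglets), from 0.50 to 0.52 with NSDHL, from 0.48 to 0.42 with CYP51 and from 0.35 to 0.19 with TM7SF2. With MSMO1 and SC5D it was 0.49 and 0.67 both with and without them. Over all 21 pairs the median r without both piglets was 0.58.

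**Figure D3:**
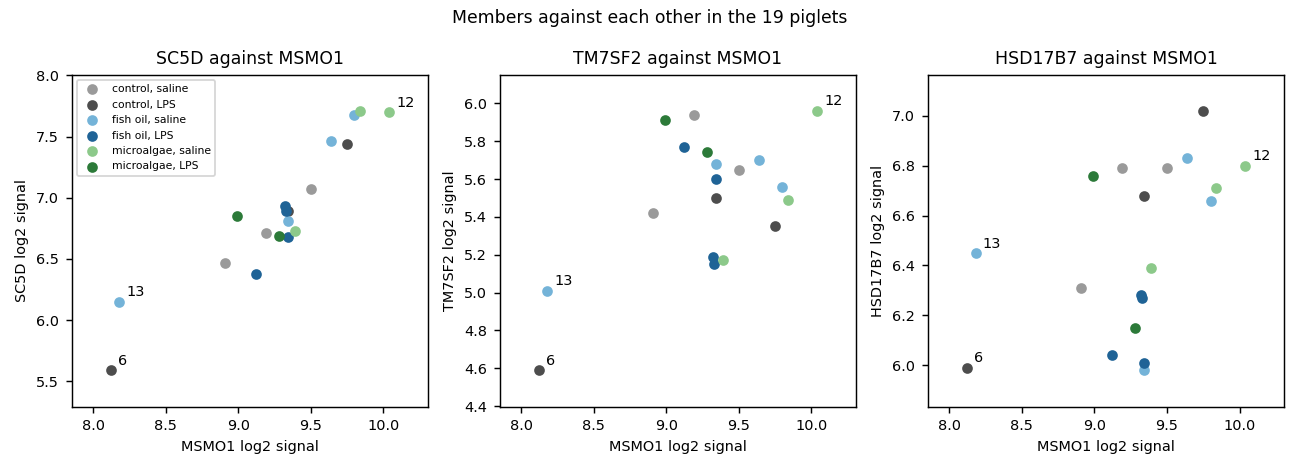
Log2 signals of SC5D, TM7SF2 and HSD17B7 (vertical axes) against MSMO1 (horizontal axes) in the 19 piglets, coloured by group. SC5D follows MSMO1 over the whole range (r = 0.93), whereas the relation of TM7SF2 with MSMO1 is carried by piglets 6 and 13 (r = 0.57 with them and 0.00 without).

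To see how the genes stood among all others, each was correlated with the 10698 other 1-symbol probe sets after the group means were taken off. CYP51 had MSMO1 as its closest probe set of all, MSMO1 had CYP51, SC5D had MSMO1 and SQLE had NSDHL. The median r with the other 6 was 0.91 for NSDHL, 0.89 for MSMO1, 0.88 for SC5D, 0.87 for CYP51, 0.84 for SQLE, 0.71 for TM7SF2 and 0.61 for HSD17B7. The medians over all 1-symbol probe sets lay between 0.00 and 0.04. For SQLE all 6 others were among the 100 closest, and for HSD17B7 1 was (4 and 3 without piglets 6 and 13). Without piglets 6 and 13 the medians were 0.69 for NSDHL, 0.75 for SC5D, 0.65 for SQLE, 0.63 for CYP51 and HSD17B7, 0.62 for MSMO1 and 0.28 for TM7SF2.

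Outside the 7, the gene closest to their mean pattern was ACAT2, the cytosolic acetyl-CoA acetyltransferase that starts the sterol route, with an r of 0.94 (0.84 without piglets 6 and 13). RRAS, a small GTPase, had 0.89 (0.72), HMGCS1, the HMG-CoA synthase, 0.88 (0.72), NADK2, the mitochondrial NAD kinase, 0.85 (0.56), and FDPS, farnesyl diphosphate synthase, 0.85 (0.42). By single gene, ACAT2 (0.96), HMGCS1 (0.90) and RRAS (0.88) were the closest to NSDHL. The closest to TM7SF2 were ACAT2 (0.92), HMGCS1 (0.88) and FDPS (0.86). For SQLE they were HMGCS1, STARD4, a sterol carrier, and ACAT2 (0.89 each). HSD17B7 and SC5D had other neighbours. Those of HSD17B7 were LPAR6 (0.89), a lysophosphatidic acid receptor, PFKFB2 (0.86), an enzyme that sets the pace of glycolysis, and GJB7 (0.84), a connexin. Those of SC5D were VSNL1 (0.90), a calcium sensor protein, RBPMS (0.90), an RNA-binding protein, and RGS4 (0.88), a regulator of G protein signals. The closest to CYP51 were the collagen COL15A1 (0.89), ACAT2 (0.88) and the zinc finger gene ZNF322 (0.88). Nearest to MSMO1 were C1QL3 (0.89), ACAT2 (0.87) and FDPS (0.86). Without piglets 6 and 13 these were 0.67, 0.65 and 0.69 for CYP51 and 0.83, 0.61 and 0.40 for MSMO1. For the neighbours named of the 5 other genes they then lay between 0.71 and 0.89. Those of TM7SF2, unlike most of its relations with the late genes, stayed at 0.83 (ACAT2), 0.84 (HMGCS1) and 0.71 (FDPS).

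Of the other sterol genes listed, 16 have a tested probe set with their symbol alone: 5 of 9 in the early mevalonate route, 3 of 10 regulators and uptake genes, 8 of 10 genes of oxysterol response, storage and efflux, and 0 of 6 further late enzymes. In the early route, ACAT2, HMGCS1, FDPS and MVK (mevalonate kinase) had the same pair of lowest piglets as the late genes. Their values in piglets 6 and 13 were 6.08 and 6.38 for ACAT2 (median 7.17), 7.72 and 7.61 for HMGCS1 (median 8.87), 6.16 and 6.57 for FDPS (median 7.51) and 5.12 in both for MVK (median 5.80). PMVK, phosphomevalonate kinase, did not share the pattern, at 5.31 and 5.02 around a median of 5.14. Its median r with the 7 genes was -0.05, against 0.88 for ACAT2, 0.86 for HMGCS1 and FDPS and 0.75 for MVK. Without piglets 6 and 13 these were 0.08 for PMVK, 0.65 for ACAT2, 0.57 for HMGCS1, 0.40 for FDPS and 0.36 for MVK.

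Among regulators, STARD4 was also lowest in piglets 13 (2.56) and 6 (3.24), and its highest value was in piglet 12. These 2 low values lie near or under 3.23, the mean log2 signal below which probe sets were left out, so the size of that gap is uncertain. INSIG1, which holds the SREBP escort protein SCAP in the endoplasmic reticulum, had 5.85 and 5.67 around a median of 6.12, and its lowest value was in piglet 21. SCAP had 6.96 and 7.17 around a median of 7.57. Of genes for cholesterol efflux and storage, NCEH1, a cholesteryl ester hydrolase, was lowest in piglets 13 (7.45) and 6 (7.58), with a median r of 0.77 (0.37 without both). ABCA1, the cholesterol exporter, was the only one of the 16 other sterol genes with a negative r to all 7, with a median of -0.26 (-0.10 without piglets 6 and 13), and had its second highest value, 9.10, in piglet 13.

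**Figure D4:**
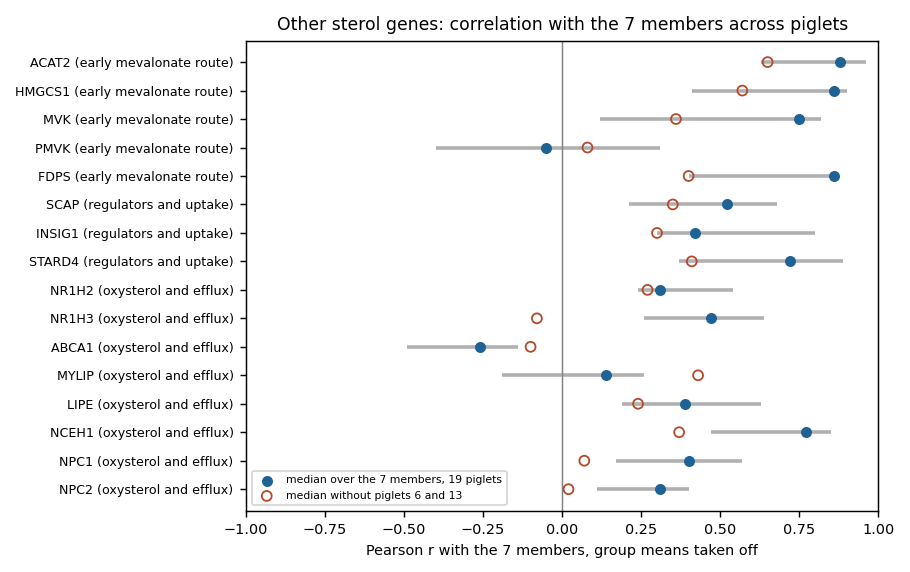
Pearson r across piglets of 16 other sterol genes with the 7 late genes, group means taken off. Grey bars span the lowest to the highest of the 7 values, filled points are their medians and open points the medians without piglets 6 and 13. ACAT2, HMGCS1, FDPS, NCEH1 and MVK have the highest medians and PMVK and ABCA1 the lowest, and the medians of ACAT2 and HMGCS1 stay above 0.5 without the 2 piglets.

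What else distinguished these piglets on the arrays was read from array measures and markers of cell types. Array medians lay between 4.38 and 4.52 and the SDs of the arrays between 1.76 and 1.97, with piglet 24 at 1.76, piglet 6 at 1.81 and piglet 13 at 1.93. Correlations between arrays were 0.934 to 0.982. Genes of the cortex were measured in 4 of 11 listed cases and were bright, with means of 12.36 ± 0.194 for CYP17A1, 11.41 ± 0.309 for SCARB1, 11.22 ± 0.227 for CYP21A2 and 11.13 ± 0.302 for HSD3B1 (SD, n = 19). The sum of their log2 signals ranged from 44.1 to 46.8 and from 44.7 to 46.7 in control, 46.3 to 47.0 and 45.6 to 46.8 in fish oil, and 45.7 to 46.8 and 45.1 to 46.0 in microalgae offspring, after saline and LPS. As the mean deviation of its markers, the cortex stood at -0.36 in piglet 6, 0.05 in piglet 13 and 0.18 in piglet 12. The medulla (7 of 12 listed markers measured) stood at 0.59, -0.19 and 0.54. Fibroblast and capsule markers (6 of 7) stood at -1.56, -0.77 and 0.08. In piglets 24 and 9 they stood at -1.56 and -1.29, with median deviations of the late genes of -0.22 and 0.00. In piglets 8 and 22 they stood at 1.39 and 1.13, with median deviations of 0.05 and 0.48. How this score went with the 7 genes across all piglets was not tested. Endothelium (5 of 6) and adipocytes (4 of 6, of which leptin, LEP, was under 3.23) stood at -0.05 and -0.21 in piglet 6 and 0.10 and -0.09 in piglet 13. Macrophage markers (4 of 6) had 0.25 and -0.08 and lymphocyte markers (6 of 6) -0.17 and -0.13, and of 4 Schwann cell markers 1 was measured. In a whole gland, fewer cells of a type and less RNA per cell cannot be told apart.

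The SD of the array, the cortex score and the medulla score were set against each of the 7 genes across the 19 piglets, 21 relations in all. The SD of the array had its highest r with SC5D, 0.63 (rho 0.71, permutation p 0.00383 and 0.00105; adjusted over the 21, 0.0804 and 0.011), and 0.47 without the 2 arrays farthest from its median. The cortex score had its highest r with CYP51, 0.60 (rho 0.71, permutation p 0.00778 and 9e-04; adjusted 0.0817 and 0.011), and 0.44 without its 2 farthest. For the medulla score r lay between -0.17 and 0.26, with adjusted permutation p values from 0.588. CYP51, MSMO1 and HSD17B7 had an r of 0.53, 0.47 and 0.45 with the SD of the array (rho 0.53, 0.56 and 0.35). SC5D, MSMO1 and NSDHL had 0.50, 0.47 and 0.41 with the cortex score (rho 0.55, 0.60 and 0.43). Adjusted permutation p values of these 6 relations were from 0.15 for r and from 0.05 for rho. SQLE and TM7SF2 had an r of 0.22 and -0.06 with the SD of the array and of 0.07 and 0.08 with the cortex score. The part of array quality and of gland composition in the shared pattern was not tested beyond these values.

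The first comparison asked how maternal LPS in late gestation left the offspring's gland, over the 3 diets, in 9 against 10 piglets. All 7 genes had a negative difference, from -0.10 ± 0.151 for TM7SF2 to -0.34 ± 0.239 for SC5D (model SE, log2). The median was -0.19 against 0.01 for all tested probe sets, of which 51.8% had a difference above 0. As the 7 genes varied together across piglets (median r 0.75), their signs are not independent, here or in the comparisons below. None of the 7 passed the threshold of 0.05 in limma after Benjamini-Hochberg adjustment over all probe sets (adjusted p from 0.747 to 0.915), where 0.00968% of all probe sets passed. At an unadjusted p under 0.05 there were also 0 of 7, against 6.97% of all. The 95% interval for SC5D ran from -0.84 to 0.16, and that for NSDHL from -0.64 to 0.13, so both intervals hold differences of either sign. Leaving out piglet 6 moved the median to -0.08 with 6 of 7 lower. Leaving out piglet 13 moved it to -0.29 with 7 of 7 lower (limma, lowest unadjusted p 0.0382, lowest adjusted p 0.737). Without both piglets it was -0.14 with 7 of 7 lower. With all piglets the median was -0.13 with array weights, and -0.11 with the SD of the array as covariate, where SC5D stood at -0.147 and CYP51 at -0.0533.

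Within fish oil offspring the LPS minus saline differences had a median of -0.06 and 5 of 7 were lower, while 51.1% of all tested probe sets had a difference above 0. Without piglet 13 the median was -0.34 with 7 of 7 lower, and without piglet 11 or 18 it was 0.09 or 0.01 with 3 of 7 lower. In control offspring the median was -0.13 with 7 of 7 lower (50.3% of all above 0), led by TM7SF2 at -0.52 ± 0.262 (adjusted p 1), whose control groups overlap through piglet 21 at 5.42 after saline and piglet 16 at 5.50 after LPS. Without piglet 6 the control median was 0.22 with 5 of 7 higher, and TM7SF2 stood at -0.24. Without piglet 14 it was 0.02 with 4 of 7 higher, and without piglet 17 it was -0.51 with 7 of 7 lower. In microalgae offspring it was -0.35 with 6 of 7 lower (53.3% of all above 0), with MSMO1 at -0.63 ± 0.424 (adjusted p 0.562) and SC5D at -0.61 ± 0.464 (adjusted p 0.611). TM7SF2 had the other sign there, at 0.29 ± 0.293 (adjusted p 0.717). Leaving out 1 microalgae piglet at a time gave medians from -0.59 (without piglet 15) to -0.17 (without piglet 12), with 4 to 6 of 7 lower. The test of whether the LPS minus saline difference varied between diets called 0 of 7 genes in limma, where 0% of all probe sets passed. Its lowest adjusted p was that of TM7SF2, 0.972 (F = 2.19). At an unadjusted p under 0.05 this test held 0 of 7 and 4.75% of all.

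The next question was whether the omega-3 diets of the sow, fish oil and microalgae, went with another level of these genes. Microalgae against control, 5 against 6 piglets, had positive differences for 6 of 7 genes. SQLE had 0.47 ± 0.278, CYP51 0.39 ± 0.273, SC5D 0.38 ± 0.311, MSMO1 0.31 ± 0.285, TM7SF2 0.27 ± 0.197 and NSDHL 0.17 ± 0.235, while HSD17B7 had -0.06 ± 0.193. The median was 0.31 against 0.00 for all tested probe sets, of which 51% had a difference above 0. All 7 had an adjusted p of 1 in limma, where 0% of all probe sets passed, and 0 of 7 had an unadjusted p under 0.05 against 1.65% of all. For SQLE the 95% interval ran from -0.12 to 1.05 and the values of the diets overlapped, from 5.77 to 7.14 in control and from 6.56 to 7.56 in microalgae piglets. Without piglet 6, a control piglet, the median was 0.12 with 5 of 7 higher. Without piglet 17, also a control piglet, it was 0.48 with 7 of 7 higher (lowest unadjusted p 0.0339, adjusted p 1), and without piglet 15, a microalgae piglet, 0.40 with 7 of 7 higher (0.0494 and 1). With array weights it was 0.15 with 6 of 7 higher.

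Fish oil against control, 8 against 6 piglets, gave differences of both signs, 5 of 7 above 0 against 50.4% of all tested probe sets. They were 0.21 ± 0.241 for CYP51, 0.18 ± 0.274 for SC5D, 0.13 ± 0.251 for MSMO1, 0.10 ± 0.207 for NSDHL and 0.05 ± 0.173 for TM7SF2, and -0.03 ± 0.245 for SQLE and -0.28 ± 0.17 for HSD17B7. Every adjusted p was 1, and 0 of 7 had an unadjusted p under 0.05, against 0% and 2.69% of all probe sets. The signs changed with the piglets used. Without piglet 6 all 7 were negative, with a median of -0.09 and HSD17B7 at -0.43 (adjusted p 1, unadjusted 0.0151). Without piglets 6 and 13 together the median was 0.05 with 4 of 7 higher, without piglet 13 alone 0.24 with 6 of 7 higher, and without piglet 17 it was 0.20 with 6 of 7 higher. With array weights and all piglets it was -0.06 with 2 of 7 higher. Leaving out piglet 11, 18 or 21 gave medians of 0.03, 0.04 and 0.05, and leaving out piglet 16 gave 0.19.

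In the direct comparison of the supplements, 8 fish oil against 5 microalgae piglets, all 7 genes had a negative difference. SQLE had the largest, -0.50 ± 0.262 with a 95% interval from -1.06 to 0.05, and the others ran from -0.07 ± 0.221 for NSDHL to -0.23 ± 0.182 for HSD17B7. The median was -0.20 against 0.00 for all tested probe sets, of which 48.7% had a difference above 0. In limma all had an adjusted p of 1 (0% of all probe sets passed), and 0 of 7 had an unadjusted p under 0.05 (2.85% of all), with SQLE at 0.0709. SQLE ran from 5.64 to 7.31 in fish oil and from 6.56 to 7.56 in microalgae piglets, which overlap. Without piglet 13, a fish oil piglet, the median was -0.06 and NSDHL stood at 0.07. It was -0.12 without piglet 12 and -0.31 without piglet 15, both microalgae piglets. In limma the lowest unadjusted p was 0.0238 without piglet 11, 0.0307 without piglet 15 and 0.0495 without piglet 6. None of the 7 genes passed after adjustment in these fits. The 3 diet comparisons share their groups, so their signs are not independent of each other.

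**Figure D5:**
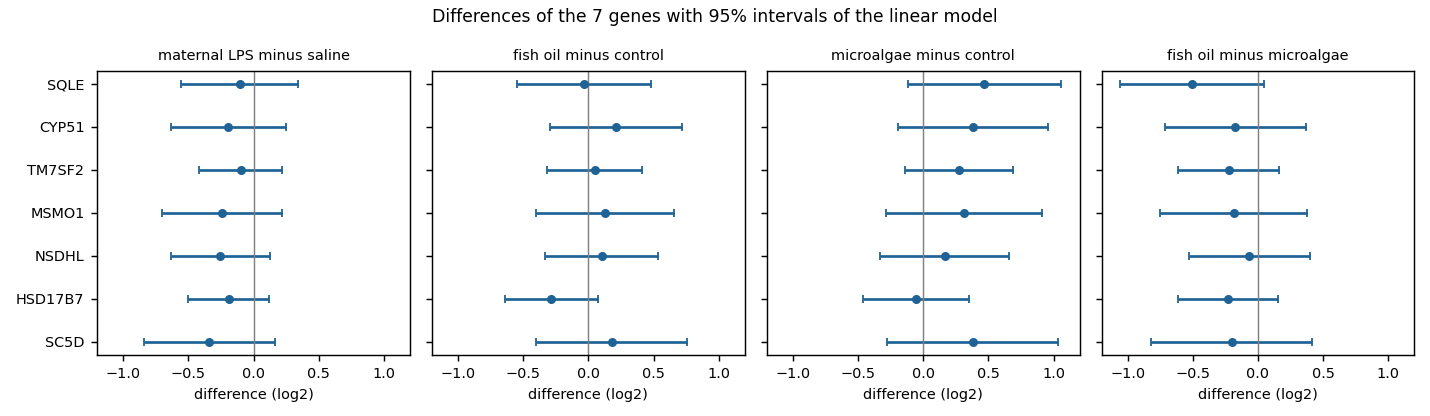
Differences in log2 signal (horizontal axes) of the 7 genes for maternal challenge and the 3 diet comparisons, with points for the estimates of the linear model and bars for their 95% intervals. Every interval includes 0, and the SQLE intervals for microalgae minus control and fish oil minus microalgae reach 0 only near one end.

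Of the 16 other sterol genes, 0 passed the threshold in each of the 4 comparisons. After maternal LPS 13 of 16 were lower (median -0.15), while 51.8% of all tested probe sets had a difference above 0. The largest falls were NPC1 at -0.25 ± 0.162, ACAT2 at -0.23 ± 0.179, MVK at -0.21 ± 0.145, SCAP at -0.21 ± 0.149 and HMGCS1 at -0.20 ± 0.24. FDPS of the early route had -0.105 ± 0.204. Several of the 16 followed the late genes across piglets, so their signs are not independent, here or in the diet comparisons. The 3 others were LIPE at 0.19 ± 0.115, PMVK at 0.06 ± 0.136 and NR1H3 at 0.05 ± 0.0957. Piglets 6 and 13 were the lowest for ACAT2, MVK, HMGCS1 and STARD4, and differences of the 16 genes without them were not read. With microalgae 13 of 16 were higher than in control (median 0.07), against 51% of all tested probe sets. The largest were STARD4 at 0.57 ± 0.31, HMGCS1 at 0.50 ± 0.312 and ACAT2 at 0.29 ± 0.233. The STARD4 value of control piglet 6, 3.24, lies near the filter level of 3.23, so the size of the STARD4 difference is uncertain. Fish oil against control had 14 of 16 higher (median 0.10), where 50.4% of all probe sets were higher. Fish oil against microalgae had 9 of 16 lower (median -0.07), where 48.7% of all were higher. By part of the route, the 5 early mevalonate genes had a median of 0.26 for microalgae against control and the 8 genes of oxysterol response and efflux one of 0.04.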

How the data were processed

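Transcriptome Analysis Console 4.0 is the tool in the submitters' processing notes. What the authors deposited is a log2 signal per probe set and piglet, the base being inferred from the range (0.263 to 13.5). The summarization and normalization are not given in the sources used here. Values were used as deposited. Of 27558 probe sets, the 6890 with the lowest mean (under 3.23) were left out and 20668 were tested, of which 10699 carry 1 gene symbol in the array annotation. Group means were modelled with limma 3.58.1 under R 4.3.3, using an intensity trend (13 residual and 4.62 prior degrees of freedom), two-sided tests and Benjamini-Hochberg adjustment over all tested probe sets. It was tested on simulated data. Alternatives changed the filter, the scaling of the arrays (centring, quantile), the trend, array weights, covariates (SD of the array, medulla score) and the piglets used, or dropped the interaction. Leaving out piglets within a diet was added after seeing the data and gives differences of group means with no test. ± beside a difference is the model SE. Likeness between genes is Pearson's r over the arrays with group means taken off, the 3 closest genes per member and the 5 closest to their mean being named. The labels give no batch. Each piglet is from its own sow, so differences between sows and between piglets cannot be told apart. The p-values set each difference against the spread between piglets of the same group. The number of arrays limits the precision. The members and lists were chosen with earlier results of these data known.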

Additional observations from a re-analysis of the deposited data

Results flagged for a closer look

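Among 14 combinations of a gene with a group of 4 piglets, 1 held a piglet apart from the rest by Dixon's criterion, which chance meets in about 1 of 20 groups. MSMO1 in fish oil offspring after maternal LPS was 9.12 in piglet 24 and between 9.32 and 9.34 in the 3 others, with a gap of 0.925 of the group's range. Piglet 24 also had the array with the lowest SD, 1.76.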

How the results depend on the processing

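In limma 0 of the 7 genes passed the adjusted threshold for maternal challenge, the 3 diet comparisons and their interaction, in the fit and under every alternative run. For maternal LPS the count over all probe sets was 2, against 9 with array weights, 12 without piglet 7 and 4 with the SD of the array as covariate, and between 0 and 12 over all alternatives. Signs depended on the piglets. With array weights fish oil minus control was -0.0783 for TM7SF2, -0.0551 for MSMO1 and -0.0382 for NSDHL. Without piglets 6 and 24 together it was -0.148 for TM7SF2, -0.0854 for MSMO1, -0.102 for NSDHL and -0.0254 for SC5D, while maternal LPS minus saline was 0.00919 for SQLE and microalgae minus control -0.0179 for NSDHL. Without piglets 6 and 13 together, an alternative chosen after seeing the data, fish oil minus control was -0.0121 for TM7SF2, microalgae minus control -0.0179 for NSDHL, and fish oil minus microalgae 0.0718 for NSDHL.

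Leaving out each piglet in turn, maternal LPS minus saline ranged from -0.223 to 0.0146 for SQLE. Fish oil minus control ranged from -0.215 to 0.129 for SQLE, -0.02 to 0.359 for CYP51, -0.0911 to 0.136 for TM7SF2, -0.112 to 0.301 for MSMO1, -0.0824 to 0.237 for NSDHL and -0.0825 to 0.379 for SC5D, with the lowest value of each without piglet 6. Microalgae minus control ranged from -0.0179 to 0.273 for NSDHL and -0.206 to 0.0972 for HSD17B7, and fish oil minus microalgae from -0.172 to 0.0718 for NSDHL. The cause of these changes was not tested. Without piglet 7 or 23 that group keeps 1 piglet, which is assumed to vary like the others. A second probe set could not be tried, as each gene has 1. No paired analysis was possible because the labels give no replicate numbers shared between groups.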

Other observations

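In the fish oil diet the 4 piglets after maternal LPS had a smaller SD than the 4 after maternal saline for the 7 genes. For TM7SF2 this did not hold without piglet 13, nor without piglet 10 (0.343 after LPS and 0.322 after saline). For SQLE the SDs were 0.0762 and 0.693, for MSMO1 0.106 and 0.73, for NSDHL 0.0942 and 0.573, for CYP51 0.137 and 0.642, for SC5D 0.254 and 0.689, for HSD17B7 0.146 and 0.365 and for TM7SF2 0.302 and 0.322. The saline group holds both a low piglet, 13, and a high one, 11, with median deviations of -0.86 and 0.46. Without piglet 13 the SD after saline was 0.0771 for TM7SF2, under the 0.302 after LPS, and for the 6 other genes it was between 0.214 (NSDHL) and 0.449 (SC5D), above that after LPS in each. The 7 genes varied together over the same arrays, so they do not count as 7 separate observations. The share of all tested probe sets with a smaller SD after LPS was not computed, and the difference in spread was not tested.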
